A study of Mus musculus with 8 samples.

Results

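Granzymes C to G are 5 neighbouring mouse genes, Gzmc, Gzmd, Gzme, Gzmf and Gzmg, chosen by symbol from the 31053 genes of the expression matrices of experiment 1 and the 32285 genes of those of experiment 2. They were followed in CD8 T barcodes, defined as barcodes with at least 1 UMI (unique molecular identifier, a count of 1 captured RNA molecule) of Cd8a or Cd8b1 and at least 1 of Cd3d, Cd3e or Cd3g, after barcodes under 500 detected genes or at 10% or more mitochondrial UMIs were left out. The cells came from tumours of MC38, a mouse colon carcinoma line, grown in wild-type C57BL/6 mice, and each droplet library was read both for gene expression from the 5′ end of transcripts and for T cell receptor (TCR) chains. Experiment 1 compared subcutaneous rhIL-7-hyFc (an Fc fusion of human interleukin-7 with an extended half-life) at 10 mg/kg with buffer, with tumours taken at day 7 after rhIL-7-hyFc and CD8 T cells enriched by magnetic beads. Experiment 2 compared rhIL-7-hyFc at 1.25 mg/kg plus a TCE with rhIL-7-hyFc at 1.25 mg/kg alone, with tumours taken 24 hours after the last treatment and CD8 T cells sorted by flow cytometry as viable CD45+TCRb+CD8a+ cells. The TCE (T cell engager) binds mouse PD-L1 on one arm and CD3ε on the other, and its intravenous dosing began on day 3. Both groups of experiment 2 thus received rhIL-7-hyFc, and neither was untreated. The number of mice behind each library and their age were not given in the labels, and the labels' schedule of 3 daily doses of the TCE can be read in more than 1 way.

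Granzymes are serine proteases that killer lymphocytes keep in granules with the pore former perforin and release into target cells. Granzymes C to G form an expansion of the granzyme B locus found in rodents. In mouse T cells they are known to appear late after activation and to be sustained by cytokines such as interleukin-2, after Gzmb has already been switched on. Granzyme C can kill target cells in mouse systems, whereas the substrates of granzymes D to G are poorly known.

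The 5 genes lie on the minus strand of chromosome 14 (GRCm38, GENCODE M21), and none of the comparisons below used their position. Gzme (ENSMUSG00000022156) lies at chr14:56117626-56120625, Gzmd (ENSMUSG00000059256) at chr14:56129556-56132608 and Gzmg (ENSMUSG00000040284) at chr14:56156582-56159579. Gzmf (ENSMUSG00000015441) lies at chr14:56205263-56211417 and Gzmc (ENSMUSG00000079186) at chr14:56231441-56234656. Together they span 117 kb, with Gzmn, another granzyme gene, between Gzmg and Gzmf. Gzmb begins 24.2 kb beyond Gzmc, and Mcpt8, a mast cell protease family member best known from basophils, ends 32.4 kb before Gzme. Each member has 5 exons, and their transcripts were 78.2% to 94.8% identical in pairwise alignments, Gzmd and Gzme being the closest pair. Of all 90-base windows of a member's transcript, 97.8% (Gzmd) to 100% (Gzmc and Gzmf) matched no transcript of another gene, so most reads of that length can be told apart, but reads from the windows that Gzmd, Gzme and Gzmg share cannot be assigned to 1 of them.

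The promoters of the 5 members share a block that is shown here because the genes were detected together in the same barcodes. In 300-base windows from RefSeq (GRCm38.p6, from 250 bases before the gene start to 50 after it), the members were 86.1% to 94.0% identical to each other, against 72.4% to 76.2% over the alignable part with Gzmb. A block of 103 bases, starting at position -113 (Gzmc) to -138 (Gzmf) from the gene start, was 90.3% to 97.1% identical between members. The sequences below run 5′ to 3′ on the minus strand, with the Runx core TGTGGT and the 8 bases aligned with the cAMP response element TGACGTCA in capitals.
Gzmc, chr14:56234668-56234770: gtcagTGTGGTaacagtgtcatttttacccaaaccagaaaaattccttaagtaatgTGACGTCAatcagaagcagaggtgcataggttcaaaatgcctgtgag
Gzmd, chr14:56132608-56132710: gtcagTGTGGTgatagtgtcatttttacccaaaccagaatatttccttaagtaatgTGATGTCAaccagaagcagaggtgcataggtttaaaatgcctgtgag
Gzme, chr14:56120641-56120743: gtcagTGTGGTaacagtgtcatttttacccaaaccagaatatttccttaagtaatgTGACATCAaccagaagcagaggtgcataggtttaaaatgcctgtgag
Gzmf, chr14:56211443-56211545: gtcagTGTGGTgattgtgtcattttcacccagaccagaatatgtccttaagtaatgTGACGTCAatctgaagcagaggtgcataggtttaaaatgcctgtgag
Gzmg, chr14:56159610-56159712: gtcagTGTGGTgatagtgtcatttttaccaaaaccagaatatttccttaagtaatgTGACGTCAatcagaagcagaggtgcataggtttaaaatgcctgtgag
The motifs were chosen after these sequences had been seen and were searched on both strands. TGTGGT occurred in all 5 members' windows, with 2 matches in each, against 16.8% of all 32851 promoter windows. The full TGACGTCA occurred in Gzmc, Gzmf and Gzmg, against 1.79% of all windows, while Gzmd and Gzme carried TGATGTCA and TGACATCA at the same place. Gzmb also had 2 matches of TGTGGT and none of TGACGTCA, and Gzmn had neither. The AP-1 motif TGANTCA (7.81% of all windows), the STAT motif TTCNNNGAA (8.30%) and the T-box motif AGGTGTGA (1.28%) had no match in a member's window. A match is a description of letters and not a measured binding site.

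Each group was 1 expression library with 1 TCR library, so no difference between groups could be tested and no p-value is given. Intervals are 95% and cover counting error only: exact Poisson for CPM (UMIs of a gene per 1000000 UMIs of its class of barcodes), exact Clopper-Pearson for shares and the conditional binomial for folds. CD8 T barcodes numbered 5622 of 6361 in the rhIL-7-hyFc 10 mg/kg library, 3975 of 5589 in the buffer library, 10933 of 11501 in the rhIL-7-hyFc 1.25 mg/kg plus TCE library and 10888 of 12560 in the rhIL-7-hyFc 1.25 mg/kg library, with median depths of 6700 to 9726 UMIs. Pairs of libraries shared 45 to 195 barcode sequences. Free RNA in the droplets differed between libraries, and its level was read from background barcodes, which held no UMI of Cd3d, Cd3e, Cd3g, Cd8a, Cd8b1, Trac, Trbc1 or Trbc2 and at least 5 UMIs of macrophage and monocyte markers. The summed members came to 10.8 CPM in the 112 background barcodes of the rhIL-7-hyFc 10 mg/kg library, against 246 CPM in the 74 of the buffer library. They came to 6.41 CPM in the 83 background barcodes of the rhIL-7-hyFc 1.25 mg/kg plus TCE library, against 61.3 CPM in the 725 of the rhIL-7-hyFc 1.25 mg/kg library, where 2 barcodes held 170 of 239 member UMIs and the rest came to 17.8 CPM. At least 1 member UMI was present in 13.4% of background barcodes with rhIL-7-hyFc 10 mg/kg, against 83.8% with buffer, and in 3.61% with rhIL-7-hyFc 1.25 mg/kg plus TCE, against 8.14% with rhIL-7-hyFc 1.25 mg/kg alone, at median depths of 5348 to 12732 UMIs. The buffer library therefore stood apart from the others, and a single member UMI in it was not read as expression.

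Gzmf was the most abundant member in every library, followed by Gzmc, and Gzmg was the least abundant. UMIs count molecules at the 5′ end, so these levels do not depend on transcript length. Gzmf had 1148 CPM with rhIL-7-hyFc 10 mg/kg, against 3170 CPM with buffer, and 2031 CPM with rhIL-7-hyFc 1.25 mg/kg plus TCE, against 2147 CPM with rhIL-7-hyFc 1.25 mg/kg alone. Gzmc had 654 CPM with rhIL-7-hyFc 10 mg/kg, against 1536 CPM with buffer, and 642 CPM with the TCE, against 1030 CPM without it. Gzmf and Gzmc together thus gave most of the members' UMIs.
Gzmd had 127 CPM with rhIL-7-hyFc 10 mg/kg, against 353 CPM with buffer, and 193 CPM with the TCE, against 200 CPM without it. Gzme was close to Gzmd in each library, at 120 CPM with rhIL-7-hyFc 10 mg/kg, against 292 CPM with buffer, and 181 CPM with the TCE, against 169 CPM without it. Gzmg had 25.9 CPM with rhIL-7-hyFc 10 mg/kg, against 78.3 CPM with buffer, and 27.3 CPM with the TCE, against 37.3 CPM without it. Every member's CPM in CD8 T barcodes lay above its CPM in the background barcodes of the same library, also in the buffer library, where background barcodes had 79.4 CPM of Gzmc and 130 CPM of Gzmf. The order of the members was Gzmf, Gzmc, Gzmd, Gzme and Gzmg in each of the 4 libraries, and the counting intervals of neighbours in that order did not overlap within a library.

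**Figure D1:**
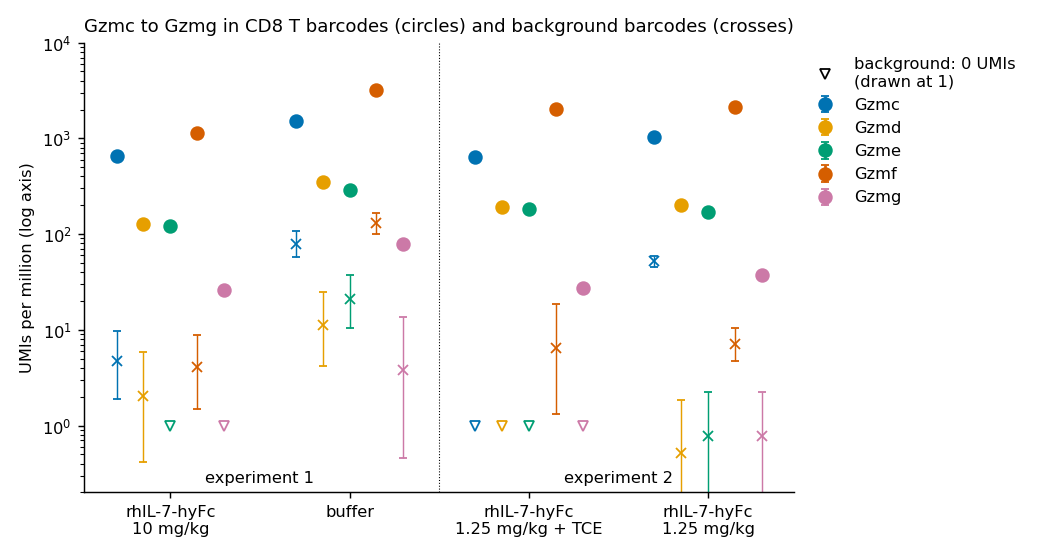
Level of each member in CPM on a log axis, by library, in CD8 T barcodes (circles) and in background barcodes (crosses), with 95% Poisson intervals and open triangles for a background of 0 UMIs. Gzmf was highest in all 4 libraries (1148 to 3170 CPM), Gzmg lowest (25.9 to 78.3 CPM), and the background was highest in the buffer library.

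The members' RNA was concentrated in a minority of CD8 T barcodes, which held very large amounts of it. Barcodes with at least 3 member UMIs per 1000 UMIs are called rich here, a limit set after the free RNA had been seen. They made up 6.71% of CD8 T barcodes with rhIL-7-hyFc 10 mg/kg (377 of 5622), against 19.2% with buffer (762 of 3975). In experiment 2 they made up 17.0% with rhIL-7-hyFc 1.25 mg/kg plus TCE (1858 of 10933), against 18.4% with rhIL-7-hyFc 1.25 mg/kg alone (2004 of 10888). These few barcodes held 92.0% to 96.8% of all member UMIs. Among background barcodes, none of 112 was rich with rhIL-7-hyFc 10 mg/kg, against 4.05% with buffer (3 of 74), and none of 83 with the TCE, against 0.276% without it. Barcodes near the limit could fall on either side: 50 barcodes with rhIL-7-hyFc 10 mg/kg and 342 with buffer, and 562 with the TCE and 570 without it, had between 2 and 4 member UMIs per 1000.
In the rich barcodes the median content was 11.8 member UMIs per 1000 with rhIL-7-hyFc 10 mg/kg, against 8.86 with buffer, and 8.46 with the TCE, against 8.98 without it. The single highest barcode of each library gave 12.9% of its UMIs to the 5 genes with rhIL-7-hyFc 10 mg/kg, against 16.0% with buffer, and 16.0% with the TCE, against 14.9% without it. Gzmf alone reached 2086 UMIs in 1 barcode with rhIL-7-hyFc 10 mg/kg, against 2633 UMIs with buffer. Gzmg, the rarest member, was concentrated in the fewest barcodes: 98.3% of Gzmg UMIs with rhIL-7-hyFc 10 mg/kg and 93.7% with buffer lay in the 1% of CD8 T barcodes with most Gzmg, and 91.3% with the TCE and 87.3% without it. For Gzmf the shares were 49.1% with rhIL-7-hyFc 10 mg/kg and 29.8% with buffer, and 25.8% with the TCE and 23.9% without it. Rich barcodes were also deeper in every library. Their median was 15820 UMIs with rhIL-7-hyFc 10 mg/kg, against 9476 in barcodes under 1 member UMI per 1000 of the same library. It was 13739, against 8218, with buffer, 8022, against 6352, with the TCE and 11412.5, against 6068, without it.

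**Figure D2:**
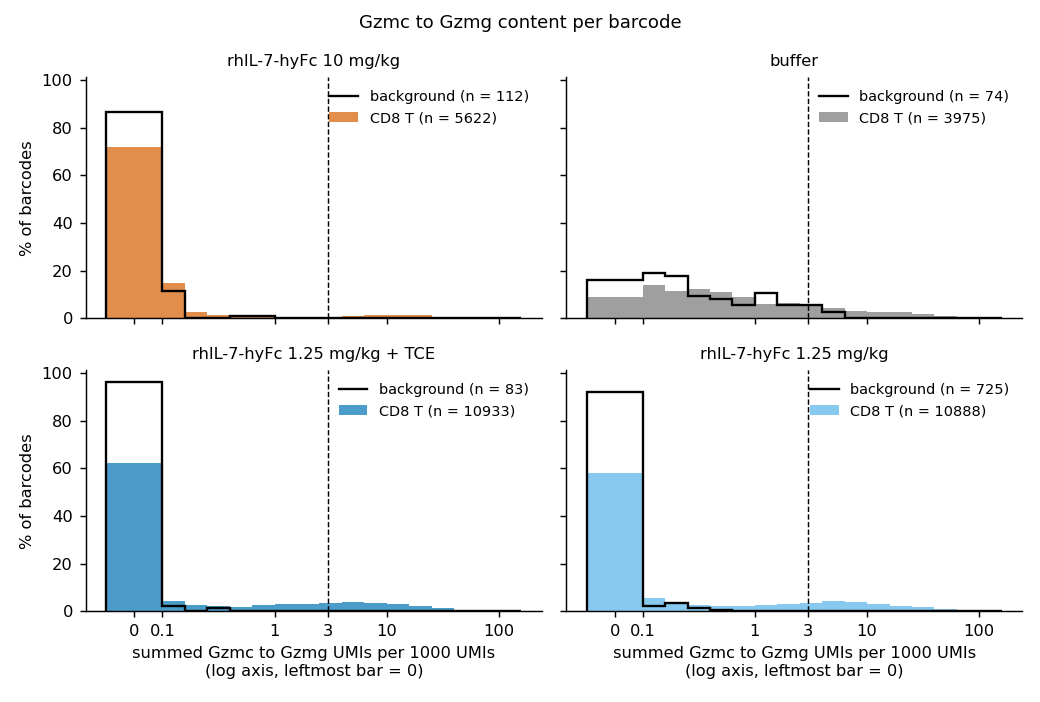
Share of barcodes by summed member UMIs per 1000 UMIs (log axis, leftmost bar for 0) in CD8 T barcodes (bars) and background barcodes (black outline) of each library, with the limit of 3 per 1000 dashed. Most CD8 T barcodes were at 0 except in the buffer library, where 8.86% were at 0 and the background outline covered the same range up to about the limit.

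At equal depth, each pair of members occurred together in more barcodes than the product of their separate shares gives, in every library. The excess was smallest with buffer, from 1.29 times for Gzmc and Gzmf to 4.84 times for Gzme and Gzmg. Whether at least 2 members were found together there more often than independence gives depended on depth. To take depth out, each barcode was thinned to 3000 UMIs, which left out 187 to 692 shallower CD8 T barcodes per library. Of barcodes with at least 1 member, 44.1% held at least 2 with rhIL-7-hyFc 10 mg/kg, where independent members would give 10.3%. With buffer it was also 44.1%, but there independence would give 41.4%, so by this measure the buffer library was near independence. Without thinning it was 65.1% there, below the 68.7% of independence. With rhIL-7-hyFc 1.25 mg/kg plus TCE it was 54.7%, where independence would give 23.6%, and with rhIL-7-hyFc 1.25 mg/kg alone 57.7%, where it would give 27.0%. When at least 2 UMIs of a member were asked for, the buffer share was 41.7%, where independence would give 21.2%.
Gzmd and Gzme, the closest pair by sequence and neighbours on the chromosome, had the highest ratio of observed to product of shares among the pairs without Gzmg. Gzmd and Gzmg had a higher ratio in every library. It was 21.1 with rhIL-7-hyFc 10 mg/kg and 4.53 with buffer, and 11.2 with the TCE and 9.70 without it. This ratio can reach higher values for rarer genes, so it does not rank pairs by how closely they are linked. Of barcodes with Gzmd, 67.8% also held Gzme with rhIL-7-hyFc 10 mg/kg and 50.5% with buffer, and 73.9% did with the TCE and 70.9% without it. Gzmf, the more abundant member, was in more of them, 76.1% and 74.4% in experiment 1, with rhIL-7-hyFc 10 mg/kg and with buffer, and 87.2% and 85.3% in experiment 2, with the TCE and without it. Among barcodes without Gzmd, Gzme was present in 1.03% with rhIL-7-hyFc 10 mg/kg and 6.56% with buffer, and in 3.34% with the TCE and 3.15% without it. The observed number of barcodes with both was 19.1 times the product of the shares with rhIL-7-hyFc 10 mg/kg and 4.23 times with buffer, and 8.29 times with the TCE and 7.41 times without it. Reads in the windows that both transcripts share may add to this pair, and their part in the result was not tested.
Most rich barcodes held Gzmf and Gzmc, and few held Gzmg. Of rich barcodes, 94.2% to 97.7% held Gzmf, 81.3% to 96.0% Gzmc, 49.1% to 57.0% Gzmd, 50.2% to 57.8% Gzme and 13.1% to 20.2% Gzmg, over the 4 libraries without thinning. All 5 members were present in 17.0% of rich barcodes with rhIL-7-hyFc 10 mg/kg and 10.5% with buffer, and in 10.9% with the TCE and 14.3% without it. Only 1 member was present in 4.51% of rich barcodes with rhIL-7-hyFc 10 mg/kg and 5.12% with buffer, and in 12.8% with the TCE and 8.83% without it.

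**Figure D3:**
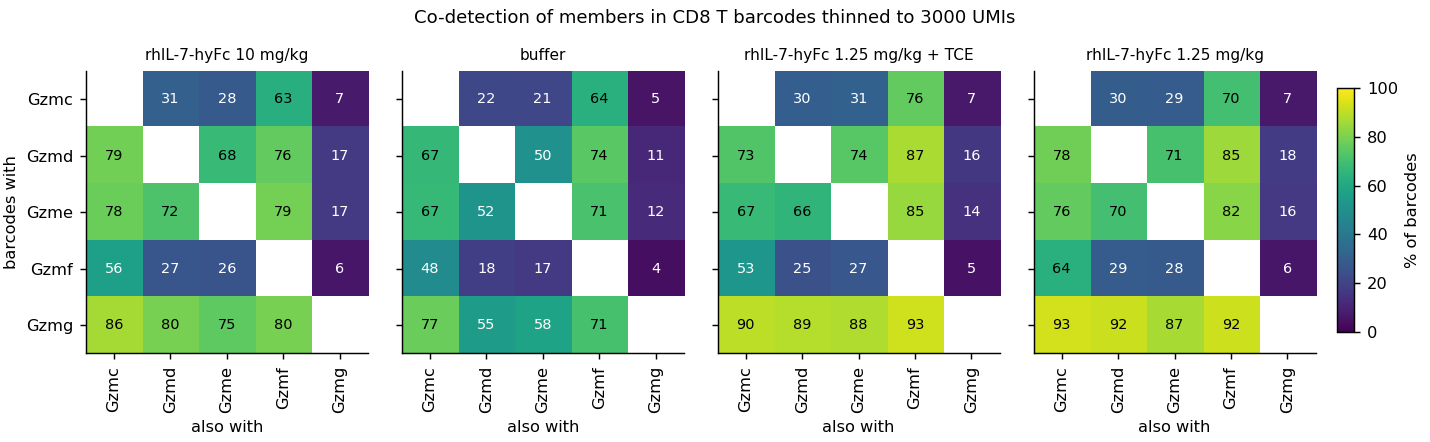
For barcodes with the member named on the left, the percentage that also held the member named below, in CD8 T barcodes thinned to 3000 UMIs, by library. Barcodes with Gzmg held each other member in 87.1% to 93.0% of cases in experiment 2, while barcodes with Gzmf or Gzmc held Gzmg in under 8%.

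The mix of members differed between rich barcodes. Gzmf was the leading member in 70.6% of them with rhIL-7-hyFc 10 mg/kg and 72.6% with buffer, and in 87.6% with the TCE and 76.3% without it. Gzmc led in most of the rest, in 27.6% with rhIL-7-hyFc 10 mg/kg and 24.1% with buffer, and in 9.47% with the TCE and 21.8% without it. Gzmg led in 1 rich barcode of all 4 libraries. Over all CD8 T barcodes, the ratio of Gzmf to Gzmc UMIs was 1.76 (1.73 to 1.78) in the rhIL-7-hyFc 10 mg/kg library and 2.06 (2.04 to 2.08) with buffer, and 3.16 (3.13 to 3.19) with the TCE and 2.08 (2.07 to 2.10) without it. Rich barcodes with Gzmf and no Gzmc UMI made up 18.5% with the TCE and 10.8% without it, and 3.71% with rhIL-7-hyFc 10 mg/kg and 9.06% with buffer. The library with the TCE thus had the strongest lean to Gzmf, with 1 library behind that statement.

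In experiment 1 all 5 members were lower with rhIL-7-hyFc 10 mg/kg than with buffer, and fewer barcodes carried them. The summed members came to 2076 CPM (2064 to 2087) with rhIL-7-hyFc 10 mg/kg, against 5429 CPM (5406 to 5451) with buffer, a fold of 0.382 (0.380 to 0.385). The members' folds were 0.426 for Gzmc, 0.361 for Gzmd, 0.413 for Gzme, 0.362 for Gzmf and 0.331 for Gzmg. All 5 thus passed the 1.5-fold mark on the lower side, as did 19.5% of the 9067 genes with at least 5 CPM in 1 of these libraries, against 5.87% on the higher side, whose median log2 ratio was -0.20. The members' median log2 ratio was -1.46. For Gzmg the log2 ratio was -1.56, -0.90 without the clonotype with most member UMIs of each library and -4.20 without cycling barcodes. Thinned to 3000 UMIs, 15.5% of barcodes held a member UMI with rhIL-7-hyFc 10 mg/kg, against 67.5% with buffer, and in background barcodes 3.06% did with rhIL-7-hyFc 10 mg/kg, against 41.7% with buffer. In summed counts, fewer cells with the RNA and less RNA per cell cannot be told apart, so the levels within classes of barcodes are given next.
Within the rich barcodes, a class defined by these genes, the sum was 18039 CPM with rhIL-7-hyFc 10 mg/kg and 18852 CPM with buffer, a fold of 0.957 (0.9502 to 0.9637). Within clonotypes of at least 5 CD8 T barcodes the direction turned, with 10680 CPM with rhIL-7-hyFc 10 mg/kg and 8308 CPM with buffer, a fold of 1.29 (1.273 to 1.298), and each of the 5 members had a fold above 1 there (1.09 for Gzmd to 1.65 for Gzmc). Within clonotypes of at least 20 the sum had a fold of 1.05 and Gzmg one of 0.324, with 66 barcodes with rhIL-7-hyFc 10 mg/kg behind it. Clonotypes of at least 5 made up 6.55% of CD8 T barcodes with rhIL-7-hyFc 10 mg/kg, against 38.4% with buffer. Clonotypes seen once made up 85.2%, against 27.9%, and within them the summed members came to 581 CPM with rhIL-7-hyFc 10 mg/kg, against 1304 CPM with buffer.
The direction also differed between classes of barcodes defined by single genes. In barcodes with Havcr2 (TIM-3, a receptor of exhausted T cells) and no Tcf7 UMI, the members came to 13255 CPM with rhIL-7-hyFc 10 mg/kg and 8563 CPM with buffer, and 60.9% of these barcodes were rich with rhIL-7-hyFc 10 mg/kg and 33.0% with buffer. They made up 7.04% of CD8 T barcodes with rhIL-7-hyFc 10 mg/kg, against 40.8% with buffer. A single Havcr2 UMI was enough for this class, whose median depth was 16716.5 UMIs with rhIL-7-hyFc 10 mg/kg and 11861.5 with buffer. Background barcodes also held Havcr2 RNA. A macrophage or monocyte UMI was present in 24.3% of CD8 T barcodes with rhIL-7-hyFc 10 mg/kg and 72.4% with buffer. The part of free RNA in this class was not tested. In barcodes with Tcf7 (TCF-1, a factor of naive and stem-like T cells) and no Havcr2 UMI, the members came to 136 CPM with rhIL-7-hyFc 10 mg/kg and 1114 CPM with buffer, and 0.546% were rich with rhIL-7-hyFc 10 mg/kg and 1.82% with buffer. Barcodes without a UMI of Pdcd1 (PD-1) and Entpd1 (CD39), genes of T cells that have met their antigen in the tumour, made up 70.1% with rhIL-7-hyFc 10 mg/kg, and 5 of those 3941 barcodes were rich. With buffer 27.1% lacked both, and 79 of those 1076 were rich.
Other granule genes were lower in part, with 5 of 14 measured genes of the granule and killing list past the 1.5-fold mark on the lower side and none on the higher. Prf1, which encodes perforin, had 156 CPM with rhIL-7-hyFc 10 mg/kg, against 787 CPM with buffer, and Gzmb had 2644 CPM, against 4500 CPM. All 7 listed serpins, some of which inhibit granzymes, were past the 1.5-fold mark on the lower side. Of the 4 other granzymes measured, 2 were past it on the lower side and 1 on the higher. Gzmk had 21.8 CPM with rhIL-7-hyFc 10 mg/kg, against 116 CPM with buffer, Gzmm had 138 CPM, against 7.87 CPM, and Gzma, which did not pass the mark, had 203 CPM, against 183 CPM.
Macrophage and monocyte markers were lower too. They summed to 297 CPM in CD8 T barcodes with rhIL-7-hyFc 10 mg/kg, against 1230 CPM with buffer, with all 12 past the 1.5-fold mark on the lower side, and their part in the result was not tested. Without CD8 T barcodes that held any of their UMIs, the members' log2 ratio was -1.62, against -1.39 over all CD8 T barcodes. After each library's background CPM was subtracted it was -1.33.

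In experiment 2 the summed members were closer in both libraries, and Gzmc was the member past the 1.5-fold mark. The sum was 3075 CPM (3064 to 3087) with rhIL-7-hyFc 1.25 mg/kg plus TCE, against 3583 CPM (3572 to 3594) with rhIL-7-hyFc 1.25 mg/kg alone, a fold of 0.858 (0.854 to 0.862). Gzmc had a fold of 0.624 (0.617 to 0.630), past the 1.5-fold mark on the lower side, as did 8.59% of 9308 genes, against 1.91% on the higher side. The other folds were 0.965 for Gzmd, 1.07 for Gzme, 0.946 for Gzmf and 0.731 for Gzmg, none past the mark. With each clonotype counted once, the log2 ratio of Gzmg was -1.27 and that of Gzmc -1.16, both past it. The median log2 ratio of all genes was 0.08, and the members' was -0.08.
Within rich barcodes the members came to 13786 CPM with the TCE and 13160 CPM without it. There Gzmc had a fold of 0.769, whereas Gzmd had 1.20, Gzme 1.33 and Gzmf 1.14. Within clonotypes of at least 5 barcodes the sum was 6711 CPM with the TCE and 7184 CPM without it, with a Gzmc fold of 0.735, which did not pass the 1.5-fold mark, and a Gzmf fold of 0.9997. Clonotypes seen once had 346 CPM with the TCE, against 911 CPM without it, and all 5 members were lower there, from 0.0744 for Gzmg to 0.501 for Gzmf. Barcodes with Tcf7 and no Havcr2 UMI had 272 CPM with the TCE, against 585 CPM without it, and barcodes with Havcr2 and no Tcf7 UMI had 5791 CPM, against 6838 CPM. Of the 4 other granzymes measured, 2 passed the mark on the higher side and 1 on the lower: Gzma had 2709 CPM with the TCE, against 204 CPM without it, Gzmk 149 CPM, against 30.3 CPM, and Gzmm 13.7 CPM, against 27.3 CPM. Gzmb, which did not pass it, had 2853 CPM with the TCE, against 1970 CPM without it.
The macrophage and monocyte markers were lower with the TCE also in this experiment, at 922 CPM with the TCE, against 3864 CPM without it, with all 12 past the 1.5-fold mark, and their part in the result was not tested. In barcodes without any of their UMIs the log2 ratio of the summed members was -0.30, against -0.22 over all CD8 T barcodes. The thinned share of barcodes with a member UMI was 33.6% with the TCE and 36.4% without it over all CD8 T barcodes, and among those without a myeloid UMI it was 3.58 percentage points higher with the TCE, so the direction of the small difference in share depended on that choice.

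Expanded clonotypes had the members at far higher levels than clonotypes seen once. A clonotype is a set of barcodes that the deposited TCR tables give the same clonotype name, and its size is its number of CD8 T barcodes. In clonotypes of at least 5 barcodes the summed members came to 10680 CPM with rhIL-7-hyFc 10 mg/kg, against 581 CPM in clonotypes seen once, a fold of 18.4 (18.1 to 18.6). The same fold was 6.37 (6.26 to 6.49) with buffer, where free RNA alone gave 246 CPM. It was 19.4 (19.02 to 19.79) with rhIL-7-hyFc 1.25 mg/kg plus TCE and 7.89 (7.783 to 7.996) with rhIL-7-hyFc 1.25 mg/kg alone. Each of the 5 members was higher in the expanded clonotypes of each library, from 3.99-fold for Gzmg with rhIL-7-hyFc 1.25 mg/kg alone to 44.7-fold for Gzmg with the TCE. Clonotypes of at least 5 barcodes held 45.9% of all member UMIs with rhIL-7-hyFc 10 mg/kg and 75.6% with buffer, and 62.2% with the TCE and 42.2% without it. Barcodes with no clonotype name held 7.43% with rhIL-7-hyFc 10 mg/kg and 12.1% with buffer. They held 31.8% with the TCE and 49.0% without it. The shares of expanded clonotypes therefore also depend on how many barcodes had a clonotype name.
The share of rich barcodes also differed with clone size. With rhIL-7-hyFc 10 mg/kg it was 1.71% in clonotypes seen once, 40.9% in those of 2 to 4, 54.97% in those of 5 to 19 and 28.8% in the 66 barcodes of 3 clonotypes of 20 and more. With buffer it was 4.15%, 16.7%, 20.2% and 35.8% over the same classes. In experiment 2 the shares were 2.24%, 11.8%, 28.6% and 35.5% with the TCE, and 2.94%, 12.3%, 29.5% and 37.8% without it. Clonotypes of 20 and more had a rich share above that of the smaller classes in every library but the rhIL-7-hyFc 10 mg/kg library, where 1 of the 3 such clonotypes held no rich barcode.
Barcodes with no clonotype name had 2698 CPM with rhIL-7-hyFc 10 mg/kg (263 barcodes) and 3474 CPM with buffer (1047 barcodes), and 2856 CPM with the TCE (2678 barcodes) and 3449 CPM without it (3764 barcodes). Each of these levels lay between those of clonotypes seen once and of at least 5 barcodes in the same library.

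**Figure D4:**
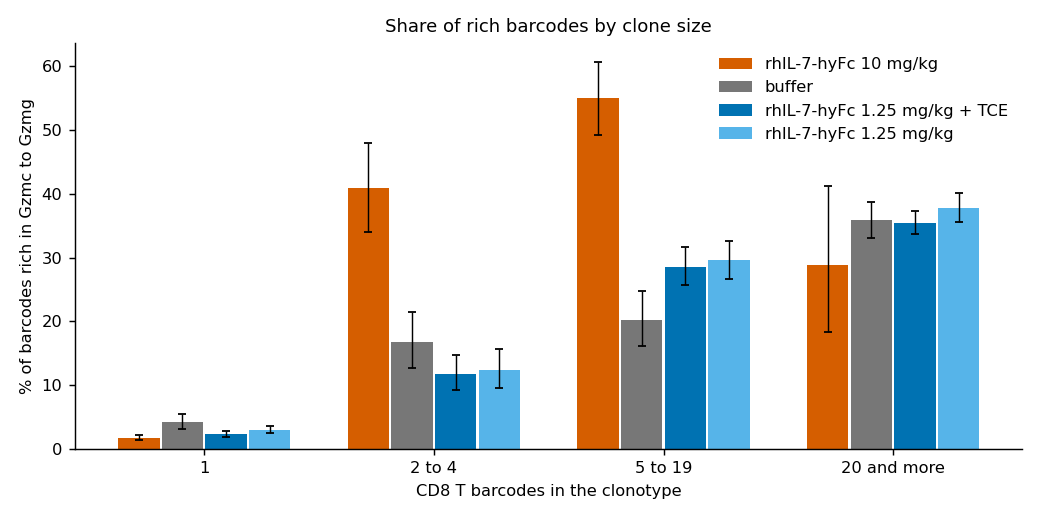
Percentage of CD8 T barcodes that were rich in the members (at least 3 UMIs per 1000) by the number of CD8 T barcodes in their clonotype, with exact 95% binomial intervals, for the 4 libraries. Clonotypes seen once were rich in 1.71% to 4.15% of barcodes, and clonotypes of 20 and more in 28.8% to 37.8%.

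Single clonotypes differed widely, and none of the large ones was rich throughout. Among the 12 clonotypes of at least 10 barcodes with rhIL-7-hyFc 10 mg/kg, the rich share ran from 0% to 88.2%, and among the 24 of at least 20 barcodes with buffer from 0% to 59.5%. Among those of at least 20 barcodes in experiment 2, it ran from 0% to 81.8% over 48 clonotypes with the TCE and from 17.0% to 70.8% over 39 without it. Barcodes of the same clonotype thus lay on both sides of the limit.
The highest level with rhIL-7-hyFc 10 mg/kg was 34922 CPM, in a clonotype of 17 barcodes of which 15 were rich. Its second-largest clonotype, with 21 barcodes, held 1 member UMI in all, 6.11 CPM. With buffer, the highest was 19690 CPM, in 55 barcodes, of which 30 were rich. A clonotype of 58 barcodes in the same library had no rich barcode and 261 CPM, beside 246 CPM in background barcodes, and another of 25 barcodes had 283 CPM and no rich barcode. With the TCE the highest was 30834 CPM, in 31 barcodes, and 1 clonotype of 20 barcodes had none rich and 253 CPM. Without the TCE the highest was 22182 CPM, in 27 barcodes, and the lowest 1750 CPM, in 47. These 2 large clonotypes of the buffer library thus lay near its background, while others of like size in the same library were far above it.
The part of the totals held by a few clonotypes differed between libraries. The 10 clonotypes with most member UMIs held 28.0% of all member UMIs in 2.01% of CD8 T barcodes with rhIL-7-hyFc 10 mg/kg and 51.5% in 18.5% with buffer, and 35.1% in 12.4% with the TCE and 17.8% in 6.67% without it. Over the clonotypes of at least 10 barcodes in the rhIL-7-hyFc 10 mg/kg library, the ratio of Gzmf to Gzmc UMIs varied between 0.766 and 8.18. Over those of at least 20 barcodes with buffer, it varied between 0.578 and 4.76. In experiment 2 it varied between 0.344 and 13.7 with the TCE and between 0.203 and 8.92 without it, also over those of at least 20. Both ends with the TCE rested on few UMIs. The clonotype at 0.344 had 11 Gzmf and 32 Gzmc UMIs, and that at 13.7 had 14 Gzmc UMIs.

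Beta chains found in more than 1 library let the members' levels be set side by side for the same receptor chain. Of 200 beta-chain CDR3 nucleotide sequences present in at least 2 libraries, 2 were present in all 4, and 8 had at least 5 barcodes in each library that held them. The sequences below are from the deposited TCR tables (the beta locus is on chromosome 6), given because the levels that follow belong to them.
Beta chain 1: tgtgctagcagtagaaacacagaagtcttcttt
Beta chain 2: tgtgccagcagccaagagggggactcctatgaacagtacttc
Beta chain 3: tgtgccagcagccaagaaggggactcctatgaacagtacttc
Beta chain 4: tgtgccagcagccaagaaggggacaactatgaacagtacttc
Beta chain 5: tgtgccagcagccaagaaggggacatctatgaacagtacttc
Beta chain 6: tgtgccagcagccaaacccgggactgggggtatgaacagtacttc
Beta chain 7: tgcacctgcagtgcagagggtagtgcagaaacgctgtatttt
Beta chain 8: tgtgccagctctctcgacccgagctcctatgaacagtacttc
Beta chain 1 was present in all 4 libraries and in 4 to 14 clonotypes of each, so it belongs to several clonotypes. Its barcodes had 8559 CPM with rhIL-7-hyFc 10 mg/kg (9 of 15 barcodes rich) and 7876 CPM with buffer (4 of 11 rich). They had 4248 CPM with the TCE (8 of 52 rich) and 5288 CPM without it (17 of 90 rich). Each of these CPM levels was above the level over all CD8 T barcodes of its library. The rich share was 60% with rhIL-7-hyFc 10 mg/kg, against 6.71% over all CD8 T barcodes, and 36.4% with buffer, against 19.2%. In experiment 2 it was 15.4% with the TCE, against 17.0%, and 18.9% without it, against 18.4%.
Beta chain 2 had 9734 CPM in 196 barcodes with the TCE, 53.1% of them rich, against 1676 CPM in 22 barcodes without it, 18.2% of them rich. Beta chain 4 went the other way, with 922 CPM in 8 barcodes with the TCE and 4014 CPM in 19 barcodes without it, beside 3618 CPM in 11 barcodes with rhIL-7-hyFc 10 mg/kg. Beta chain 3 had 4288 CPM with rhIL-7-hyFc 10 mg/kg and 8824 CPM with rhIL-7-hyFc 1.25 mg/kg alone, and beta chain 5 had 17125 CPM with buffer and 15030 CPM with rhIL-7-hyFc 1.25 mg/kg alone, in 7 to 11 barcodes each.
Beta chain 7 was high in both libraries that held it, with 26631 CPM in 7 barcodes with rhIL-7-hyFc 10 mg/kg and 20306 CPM in 5 barcodes with the TCE. Beta chain 8 had 5455 CPM in 7 barcodes with rhIL-7-hyFc 10 mg/kg and 4252 CPM in 5 barcodes with buffer. Beta chain 6 differed widely, with 11622 CPM in 8 barcodes with rhIL-7-hyFc 10 mg/kg, 432 CPM in 11 barcodes with the TCE and 397 CPM in 9 barcodes without it. The same beta chain may be joined to different alpha chains in different mice, and the experiments differ in dose, timing and isolation, so these values stand side by side only.

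Within every library, rich barcodes were high in perforin and in the inhibitory receptor genes Pdcd1, Lag3 and Havcr2, and most naive and memory genes were lower in them. They were set against barcodes under 1 member UMI per 1000 of the same library, and genes past 1.5-fold were counted among those with at least 5 CPM in either class. The background differed: with rhIL-7-hyFc 10 mg/kg 20.5% of genes were higher and 11% lower in rich barcodes, with buffer 3.54% and 12.1%, with the TCE 4.7% and 4.98%, and without it 3.58% and 4.16%.
Prf1, the perforin gene, had 756 CPM in rich barcodes, against 77.1 CPM in low ones, with rhIL-7-hyFc 10 mg/kg, and 1623 CPM, against 418 CPM, with buffer. It had 504 CPM, against 133 CPM, with the TCE and 552 CPM, against 150.5 CPM, without it. The rest of the granule and killing list, which holds granule matrix, sorting and release genes such as Srgn, Nkg7 and Unc13d, moved little: 1 or 2 of 14 measured genes were higher in each library, Prf1 included, and 2 were lower with buffer.
The other granzymes split. Gzmb, the main killing granzyme of activated CD8 T cells, had 6899 CPM in rich barcodes, against 2086 CPM in low ones, with rhIL-7-hyFc 10 mg/kg, and 8225 CPM, against 2915 CPM, with buffer. It had 3568 CPM, against 1345 CPM, without the TCE, but 3211 CPM, against 2890 CPM, with it. Gzma, a granzyme with trypsin-like activity, had 516 CPM in rich barcodes, against 3617 CPM in low ones, with the TCE and 60.9 CPM, against 254 CPM, with buffer.
Gzma had 166 CPM, against 204 CPM, with rhIL-7-hyFc 10 mg/kg, and 208 CPM, against 204 CPM, without the TCE. Gzmm, a granzyme of innate-like and resting lymphocytes, was lower in the rich barcodes of every library, from 8.82 CPM, against 157 CPM, with rhIL-7-hyFc 10 mg/kg to 2.65 CPM, against 18.3 CPM, with the TCE. Gzmk had 54.3 CPM, against 17.5 CPM, with rhIL-7-hyFc 10 mg/kg, and 75.2 CPM, against 139 CPM, with buffer. Gzmn, which lies inside the cluster, had under 1 CPM in the rich barcodes of each library.

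Mcpt8, a protease gene of the same chromosomal region that is otherwise used as a basophil marker, was found almost only in rich barcodes. With rhIL-7-hyFc 10 mg/kg it had 73 UMIs in rich barcodes, against 4 in low ones, which is 10.9 CPM, against 0.0750 CPM. With buffer it had 39 UMIs, against 2, and with the TCE 37 UMIs, against 5. Without the TCE it had 102 UMIs, against 2, or 3.76 CPM, against 0.0288 CPM. Low barcodes outnumbered rich ones in each library. Background barcodes had no Mcpt8 UMI, but with 74 to 725 of them in a library and levels this low, hardly any would be found. They therefore cannot show whether free Mcpt8 RNA was present.
Of the 9 neighbouring proteases listed, among them Ctsg, Cma1 and Mcpt4, 6 or 7 had no UMI in the rich barcodes of a library, and Mcpt8 gave most of the list's 2.33 to 11.8 CPM. Of the 8 mast cell and basophil markers, 4 to 6 were at 0 in rich barcodes, and those above 1 CPM were Mcpt8 and Kit, the receptor of stem cell factor, with 6.13 to 21.0 CPM in rich barcodes, against 0.957 to 7.39 CPM in low ones.

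The genes whose levels followed the members most closely across barcodes included perforin and inhibitory receptors. Over CD8 T barcodes, Pearson's r of each gene with the summed members (log of 1 plus UMIs per 10000) was averaged over the 4 libraries for 10115 genes, whose median was 0.0156. These values share library and depth and are a description. The highest were Ifitm2 (0.485), Prf1 (0.479), Irf8 (0.463), Ifitm1 (0.454) and S100a4 (0.454). AC163354.1 (0.441), Pdcd1 (0.439), Lag3 (0.439), Pglyrp1 (0.414) and Tnfrsf9 (0.407) completed the first 10. Irf8 is a transcription factor, Lag3 an inhibitory receptor and Tnfrsf9 the costimulatory receptor 4-1BB. Emb (-0.37) and Ccr7 (-0.33), which encodes a chemokine receptor of lymph node homing, were among the lowest.
Among the exhaustion list, 16 of 19 measured genes were higher in rich barcodes with rhIL-7-hyFc 10 mg/kg and 9 of 19 with buffer, and 11 of 20 with the TCE and 9 of 20 without it. On the lower side were 2 with rhIL-7-hyFc 10 mg/kg and 1 with buffer, and 1 with the TCE and 2 without it, with Eomes, a T-box transcription factor, among them in each library and Cd160, a receptor gene, where there were 2. Pdcd1 had 633 CPM, against 66.2 CPM, with rhIL-7-hyFc 10 mg/kg, and 706 CPM, against 394 CPM, with buffer. It had 829 CPM, against 447 CPM, with the TCE, and 606 CPM, against 338 CPM, without it. Havcr2, which also had 80.3 to 117 CPM in background barcodes, and Lag3 had folds above 1.5 in every library, 16.7 and 8.92 with rhIL-7-hyFc 10 mg/kg, 2.31 and 1.52 with buffer, 2.61 and 1.92 with the TCE, and 2.47 and 1.74 without it.
Among the 15 naive and memory genes none was higher in rich barcodes of any library, and 14 were lower with rhIL-7-hyFc 10 mg/kg and 12 in each of the other libraries, Gzmm among them. Tcf7 had 13.5 CPM, against 162 CPM, with rhIL-7-hyFc 10 mg/kg, and 3.58 CPM, against 49.96 CPM, with buffer. S1pr1, which lets T cells leave tissue, had 3.79 CPM, against 34.5 CPM, with the TCE, and 5.13 CPM, against 33.9 CPM, without it.

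The listed serpins, some of which guard the cell's own cytoplasm against granzymes, were often higher in rich barcodes. All 7 listed serpins were higher in rich barcodes with rhIL-7-hyFc 10 mg/kg, and 4 of 7 in each of the other libraries, with 1 lower with buffer. Serpinb9, the inhibitor of granzyme B, had a fold of 3.38 with rhIL-7-hyFc 10 mg/kg and folds of 1.68 with buffer, 1.31 with the TCE and 1.54 without it. Serpinb9b, a close relative of Serpinb9, had 361 CPM in rich barcodes, against 9.43 CPM in low ones, with rhIL-7-hyFc 10 mg/kg, and 718 CPM, against 102 CPM, with buffer. It had 179 CPM, against 35.6 CPM, with the TCE, and 114 CPM, against 10.9 CPM, without it.
Counts of cycling genes differed between libraries. All 20 were higher in rich barcodes with rhIL-7-hyFc 10 mg/kg, 6 with buffer, 1 with the TCE and 11 without it. Mki67, a marker of dividing cells, had 93.3 CPM, against 36.3 CPM, with rhIL-7-hyFc 10 mg/kg, and 82.5 CPM, against 85.8 CPM, with the TCE. Ifng, the gene of interferon gamma, had 314 CPM, against 74.1 CPM, with rhIL-7-hyFc 10 mg/kg, and 482 CPM, against 271 CPM, with buffer, and its folds were 1.32 with the TCE and 1.17 without it. Csf1, the growth factor of macrophages, had 65.8 CPM, against 6.02 CPM, with rhIL-7-hyFc 10 mg/kg, and 79.3 CPM, against 30.9 CPM, with the TCE. Ccl5, a chemokine of memory and effector cells, was lower in rich barcodes of every library, with folds of 0.181 with rhIL-7-hyFc 10 mg/kg, 0.258 with buffer, 0.455 with the TCE and 0.5703 without it.
Of the 20 genes of the IL-2 receptor, STAT5 and effector transcription factor list, 10 were higher and 5 lower in rich barcodes with rhIL-7-hyFc 10 mg/kg and 5 and 6 with buffer, and 3 and 4 both with the TCE and without it. Irf8 had the highest fold of that list in each library, with 910 CPM, against 115 CPM, with rhIL-7-hyFc 10 mg/kg, and 543 CPM, against 199 CPM, with the TCE, beside 173 to 395 CPM in background barcodes. Id2, a regulator of effector T cells, had a fold of 4.83 with rhIL-7-hyFc 10 mg/kg and folds of 1.604 with buffer, 1.93 with the TCE and 1.89 without it. Socs3, an inhibitor of cytokine signals, was lower in every library, with folds of 0.162 with rhIL-7-hyFc 10 mg/kg, 0.208 with buffer, 0.366 with the TCE and 0.432 without it.
Macrophage and monocyte markers summed to 268 CPM in rich barcodes, against 295 CPM in low ones, with rhIL-7-hyFc 10 mg/kg, to 355 CPM, against 1698 CPM, with buffer, to 1105 CPM, against 735 CPM, with the TCE, and to 3739 CPM, against 3785 CPM, without it. In the library with the TCE 6 of 11 of them were higher in rich barcodes, and their part in the values there was not tested. The defining T cell markers Cd3g and Cd8a were not lower in rich barcodes of any library. Of the 10 T cell markers listed, 3 were past 1.5-fold on the higher side with rhIL-7-hyFc 10 mg/kg, and 1 on the lower side with the TCE. None passed it with buffer or without the TCE. Cd5 of that list had a mean log2 ratio of -0.41 between barcodes with at least 2 members and those with none. Among NK cell markers, Ncr1, which encodes the NK receptor NKp46, had at most 6.25 CPM in rich barcodes and no UMI there with rhIL-7-hyFc 10 mg/kg. Fcer1g, a signalling chain shared with myeloid cells, had 487 CPM, against 116 CPM, with rhIL-7-hyFc 10 mg/kg, and 590.05 CPM, against 282 CPM, with the TCE. Of the NK cell markers measured, 1 of 5 was higher and 1 lower past 1.5-fold with rhIL-7-hyFc 10 mg/kg. With buffer 1 of 6 was higher and 4 lower. With the TCE 1 of 4 was higher and 1 lower, and without it 1 of 5 was higher and none lower. Klra8 of that list had a mean log2 ratio of -0.82 between barcodes with at least 2 members and those with none.

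**Figure D5:**
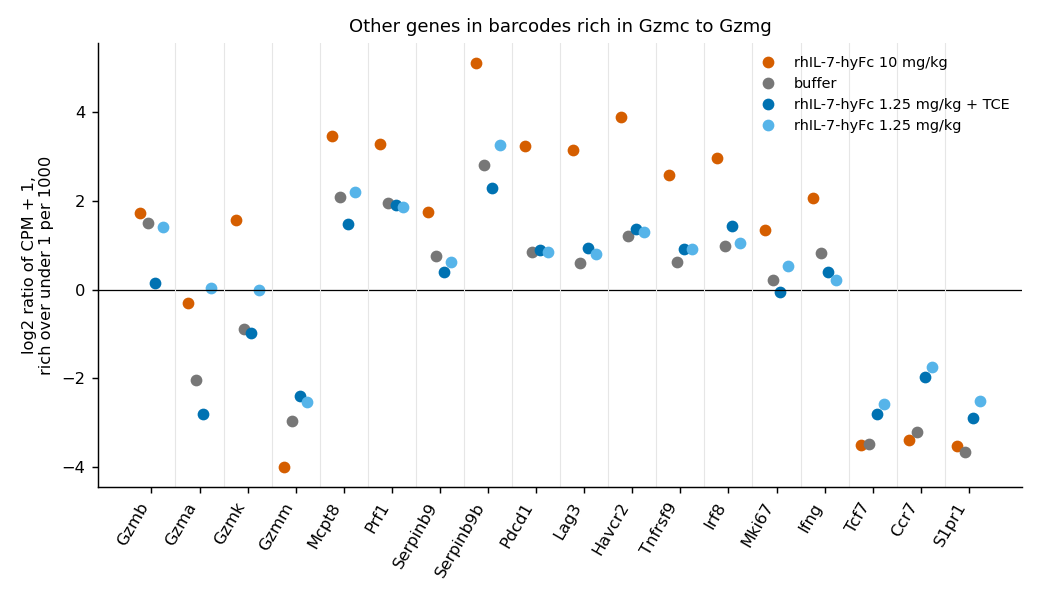
Log2 ratio of CPM + 1 in rich barcodes over barcodes under 1 member UMI per 1000, for granzymes, the neighbour Mcpt8, perforin, serpins and genes of T cell states, by library. Prf1, Serpinb9b, Mcpt8, Pdcd1, Lag3 and Havcr2 lay above 0 in all 4 libraries, and Gzmm, Tcf7, Ccr7 and S1pr1 below 0.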

How the data were processed

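The deposited expression matrices hold raw UMI counts per gene and barcode from 10x Genomics 5′ libraries, per the file headers written by Cell Ranger 4.0.0 (experiment 1) and 6.1.2 (experiment 2). The submitters' processing notes name the build GRCm38. Neither the read length nor the upstream choice of barcodes is stated in the labels. The deposited TCR tables list assembled contigs, and their UMI counts per contig served only to rank beta chains. No doublets were removed; leaving out barcodes with more than 1 productive beta chain was an alternative.

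Barcodes with at least 500 genes and under 10% mitochondrial UMIs were kept. Counts were summed per class and expressed as CPM, with log2 ratios on CPM + 1. No test was possible with 1 library per group. Barcodes were thinned to 3000 UMIs where shares were compared. Tools were Python 3.11.15, numpy 2.4.6, scipy 1.17.1, pandas 2.3.3, matplotlib 3.10.9, Biopython and, for scaling factors, edgeR 4.0.16 and DESeq2 1.42.0. The folds, the ranking and the thinning were tested on simulated data.

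The genes, the 19 lists and the comparisons were chosen with earlier results of these data known. The named genes are the 5 members, the other granzymes, the 10 genes most like the members, the 3 list members with the largest ratio between barcodes with at least 2 members and with none, and Prf1, Pdcd1, Havcr2, Tcf7, Mki67 and Ifng; Serpinb9, Emb, Ncr1, Eomes and Cd160 were added after their values were seen, and 1 gene is not reported here. The rich class was set after the free RNA of the buffer library was seen. Experiments differ in dose, timing, isolation and annotation, so groups were compared within an experiment.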

Additional observations from a re-analysis of the deposited data

How the results depend on the processing

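No paired analysis was possible because each group was 1 library, so no result has a test. The log2 ratio of the summed members in experiment 1 was -1.39. It became -1.44 under a stricter CD8 T gate, -1.62 without barcodes holding a myeloid UMI and -1.38 with the gate alone. Without the clonotype with most member UMIs of each library it was -1.38, without cycling barcodes -1.97 and with at most 1 beta chain -1.47. In clonotypes seen once it was -1.16, with edgeR TMM factors -1.12 and with DESeq2 size factors -1.09. After thinning it was -1.61, with each clonotype counted once -1.36 and after background subtraction -1.33. It reversed to 0.36 in clonotypes of at least 5, as did Gzmc (0.72), Gzmd (0.12), Gzme (0.59), Gzmf (0.19) and Gzmg (0.14). In experiment 2 it was -0.22. It became -0.23 (stricter gate), -0.30 (no myeloid UMI) and -0.23 (without the clonotype with most member UMIs). Other settings gave -0.10 (no cycling barcodes), -0.30 (at most 1 beta chain), -0.10 (clonotypes of at least 5) and -1.39 (seen once). Further settings gave -0.28 (TMM), -0.29 (DESeq2), -0.21 (thinned), -0.51 (each clonotype once) and -0.20 (background subtracted). Members near 0 there changed sign: Gzmd to 0.012 without myeloid UMIs, 0.16 without cycling barcodes and 0.067 in clonotypes of at least 5, Gzme to -0.00497 with at most 1 beta chain, -1.05 in clonotypes seen once and -0.25 with each clonotype once, and Gzmf to 0.027 without cycling barcodes. Over the 13 settings Gzmg ran from -4.20 to 0.14 in experiment 1 and from -3.02 to -0.18 in experiment 2, and Gzmc from -1.71 to 0.72 and from -2.24 to -0.44.

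The share of barcodes with a member UMI differed by -51.9 points in experiment 1, by -33.7 with at least 2 UMIs, -63.1 unthinned and -57.8 at 5000 UMIs. In experiment 2 it differed by -2.78 points, by -6.82 at 5000 UMIs and, reversed, by 3.58 without myeloid UMIs. The rich share in experiment 1 differed by -12.5 points, by -26.0352 at a limit of 1 per 1000 and -4.81 at 10. The clone size log2 ratio with rhIL-7-hyFc 10 mg/kg was 4.20. It became 5.61 with clones by beta chain and 4.02 at a minimum size of 20. Without the clonotype with most member UMIs it was 4.06, and with equal numbers of barcodes 3.77. With each clonotype once it was 5.15, and after background subtraction 4.22. With buffer it was 2.67 and became 3.81 by beta chain, 2.58 at a minimum size of 2 and 2.78 at 20. There it was 2.57 without the clonotype with most member UMIs, 2.84 with each clonotype once and 2.93 after background subtraction. With the TCE it was 4.27 and became 5.39 by beta chain, 4.12 at a minimum of 2, 4.37 at 20 and 4.11 with each clonotype once. Without the TCE it was 2.98 and became 4.11 by beta chain, 2.83 at a minimum of 2 and 3.18 at 20. There it was 2.85 without the clonotype with most member UMIs, 3.45 with each clonotype once and 3.07 after background subtraction.

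Co-detection of at least 2 members, unthinned, at 5000 UMIs and with at least 2 UMIs each, was 33.4%, 39.02% and 66.4% with rhIL-7-hyFc 10 mg/kg, 65.1%, 53.6% and 41.7% with buffer, 60.1%, 61.1% and 45.7% with the TCE, and 62.7%, 62.0309% and 53.2% without it. The genes past 1.5-fold in experiment 1 numbered 532 higher and 1772 lower, 331 and 873 at a minimum of 20 CPM, and 2836 lower with every gene counted; in experiment 2 they numbered 178 and 800, 96 and 460 at 20 CPM, and 1211 lower with every gene counted. The cause of these changes was not tested. Free RNA limits what a single member UMI shows most in the buffer library. Background subtraction, the other limits for rich barcodes and the barcodes left out of the background were chosen after seeing the data.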
